A study of Mus musculus with 9 samples.

Results

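Dlk1 and 9 genes of the Notch pathway were followed across 9 arrays hybridised with total RNA of the mouse neuroblastoma cell line N1E-115. The genes were Notch1, Notch3, Dll1, Jag1, Jag2, Hes1, Hes6, Hey1 and Numb. Every probe set that the platform annotation gave to exactly 1 of these symbols was taken, which made 16 probe sets for the 10 genes, of 22626 probe sets for 12393 genes in all. Of the arrays, 3 came from cells that overexpressed mouse Tcof1, 3 from cells in which Tcof1 was knocked down and 3 from wildtype cells. All 9 arrays share the same parent line, and each group is lettered A, B and C, the order in which values are given below. The construct or agent behind either change, the number of clones, the time of harvest and the meaning of the letters were not stated in the sources read here, so the spread between arrays may be technical. Treacle, the product of Tcof1, is a protein of the nucleolus needed to make ribosomal RNA, and the design asks what raised or lowered Tcof1 goes with.

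Notch receptors are membrane proteins that are cut when a ligand on a neighbouring cell pulls on them. The freed intracellular part joins the DNA-binding protein RBPJ in the nucleus and turns on genes of the Hes and Hey families, which repress proneural genes and so hold back neuronal differentiation. Dlk1 encodes a membrane protein built like a Notch ligand but without the domain that the Delta and Jagged ligands use to bind the receptor. It is an imprinted gene, expressed from the paternal allele, and is known from the adrenal medulla and from neuroblastoma, a tumour of the sympathetic nervous system. These 10 genes were chosen with their values in all 3 groups known, so their own values are described and are not used as tests. Where the call rule defined below is applied to them, whether it was met is part of that description.

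Array medians lay between 164.1 and 185.95 intensity units, and means trimmed by 2% at each end were 500.18 to 500.2. Log2 values correlated at 0.9725 to 0.9782 within groups and at 0.9559 to 0.9782 between groups. Of the 3 Tcof1 probe sets, 1 was higher in overexpressed over wildtype (log2 fold change 0.87 ± 0.21, adjusted p = 0.0241, limma), and in knockdown over wildtype none of the 3 passed, so these probe sets do not check the knockdown label. For the catecholaminergic identity of the line, 11 of 12 listed markers were measured, with summed intensities of 29022.9 to 32494.8 in overexpressed, 33996.9 to 36349.1 in knockdown and 31720.2 to 36525.6 in wildtype arrays. Chgb weighs most in these sums, with means of 14492 in overexpressed, 17919 in knockdown and 17289 in wildtype arrays. In overexpressed over wildtype, 4 of the 11 passed in limma, 2 lower and 2 higher. That is 18.2% each, beside 6.22% of all genes called lower and 5.04% called higher. Ache, which encodes acetylcholinesterase, fell by 1.40 ± 0.14 on the log2 scale (adjusted p = 0.000435), and Chga, a secretory granule protein gene, by 0.75 ± 0.12 (adjusted p = 0.00309). Isl1, a homeobox gene of sympathetic neurons, rose by 0.99 ± 0.21 (adjusted p = 0.0137), and Dbh, which encodes the enzyme that makes noradrenaline, by 0.60 ± 0.11 (adjusted p = 0.00769). In knockdown over wildtype 0 of the 11 passed, with 1 at an unadjusted p under 0.05. This was Dbh, at 0.66 ± 0.11 (adjusted p = 0.0847, limma), with all knockdown arrays above the wildtype arrays. Dbh was at -0.06 ± 0.11 in overexpressed over knockdown, so its difference was not particular to the overexpressing cells. The 3 that passed in that comparison were Ache, Chga and Isl1. Ache was at -1.31 ± 0.14 (adjusted p = 0.000623, limma), Chga at -0.82 ± 0.12 (adjusted p = 0.00288, limma) and Isl1 at 0.77 ± 0.21 (adjusted p = 0.0482, limma). That is 18.2% lower and 9.09% higher, beside 5.25% and 3.57% of all genes. Of the 11, Ddc, which encodes an enzyme of dopamine synthesis, was dim, with group means of 21.7 in overexpressed, 61.4 in knockdown and 43.2 in wildtype arrays. A fold change is the log2 difference of group means of log2(intensity + 16) ± SE, which understates changes of dim probe sets. A probe set met the call rule when its adjusted p, over all 22626 probe sets of a comparison, was under 0.05 in limma's fit across all 9 arrays. A gene is counted by its brightest probe set. In limma, an unadjusted p under 0.05 was reached by 5209 of the 22626 probe sets in overexpressed over wildtype. It was reached by 2462 in knockdown over wildtype and by 5092 in overexpressed over knockdown. Every count at an unadjusted p given here is to be read beside these.

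Dlk1 differed most of the members, and its difference lay between the overexpressing cells and both other groups. Its intensity was 62.2, 93.9 and 108.1 in overexpressed arrays, 1071.2, 1099.8 and 1216.5 in knockdown arrays, and 1192.4, 1111.1 and 1134.5 in wildtype arrays. All 3 overexpressed arrays were low and lay far below the other 6, whereas the knockdown and wildtype arrays overlapped. The means were 88.1 ± 23.5 in overexpressed, 1129 ± 77.0 in knockdown and 1146 ± 41.85 in wildtype cells (SD, n = 3 each). The mean in overexpressed cells was 13.0-fold below that in wildtype cells and 12.8-fold below that in knockdown cells. The log2 fold change was -3.51 ± 0.16 in overexpressed over wildtype and -3.48 ± 0.16 in overexpressed over knockdown. In knockdown over wildtype it was -0.02 ± 0.16, a value whose sign turned under 2 of 17 alternatives. Among all 22626 probe sets, Dlk1 ranked 1 from the lowest fold change in overexpressed over wildtype and 4 in overexpressed over knockdown. The gene has a single probe set, of the type marked s, which can match more than 1 transcript. The array does not tell fewer cells with Dlk1 RNA from less of it in each cell.

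**Figure D1:**
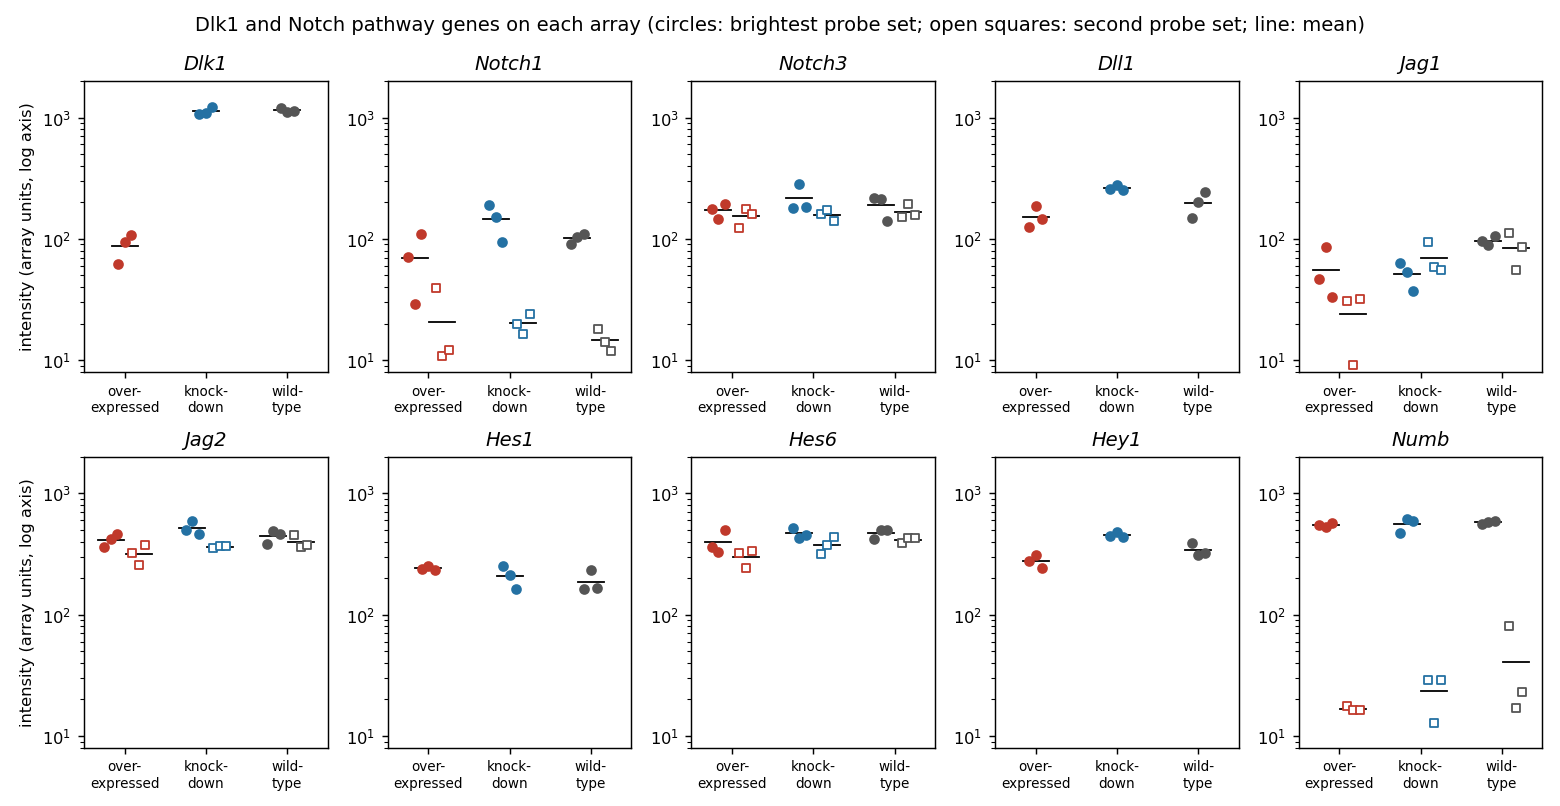
Intensity of the 16 probe sets on each of the 9 arrays (log axis), by gene and group; circles are the brightest probe set, open squares the second, and lines the group means. Dlk1 lies at 62.2 to 108.1 in overexpressed arrays, against 1071.2 to 1216.5 in knockdown and 1111.1 to 1192.4 in wildtype arrays, while the groups of most other genes lie close together.

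Markers of other cell types were read beside Dlk1. Of 6 Schwann cell markers 4 were measured, and their summed intensity was 408.7 to 567.3 in overexpressed, 621.1 to 676.5 in knockdown and 643.4 to 678.7 in wildtype arrays. Group means of these markers ran from 14.1 to 431.3. Without detection calls, the dim ones do not show whether a gene was expressed. Among them Erbb3, which encodes a neuregulin receptor, fell in overexpressed over wildtype (-0.71 ± 0.12, adjusted p = 0.00515, limma) and in overexpressed over knockdown (-0.46 ± 0.12, adjusted p = 0.0462, limma). The other 3 did not pass, and in overexpressed over wildtype Sox10 was at -0.05 ± 0.26, S100b at 0.07 ± 0.33 and Foxd3 at 0.20 ± 0.35. All 6 fibroblast markers were measured and summed to 379.7 to 529.7 in overexpressed, 507.4 to 641.2 in knockdown and 376.1 to 526.2 in wildtype arrays. In limma 0 of the 6 were called in any of the 3 comparisons, and 0 had an unadjusted p under 0.05. Of 6 blood and immune cell markers 5 were measured and summed to 382.8 to 517.4 in overexpressed, 441.5 to 630.9 in knockdown and 467.0 to 512.6 in wildtype arrays. In limma 0 of the 5 were called against wildtype, with 2 at an unadjusted p under 0.05 in overexpressed over wildtype and 0 in knockdown over wildtype. Of these 2, Hba-a1 was higher, at 1.19 ± 0.36 (adjusted p = 0.064, limma). The other, the T cell gene Cd3e, was lower, at -0.78 ± 0.31 (adjusted p = 0.154, limma). In overexpressed over knockdown 1 of the 5, Cd3e, fell (-1.16 ± 0.31, adjusted p = 0.0456, limma). There Hba-a1 was at 0.955 ± 0.36 and did not pass (adjusted p = 0.141, limma). Both genes were dim, under the median probe set brightness of 175.22. Means in overexpressed, knockdown and wildtype arrays were 42.8, 112.4 and 86.2 for Cd3e and 101.4, 47.7 and 36.4 for Hba-a1. Of the Schwann cell markers it was thus Erbb3 that was low in the same arrays as Dlk1. Unlike for Dlk1, its knockdown arrays also lay below all wildtype arrays, at -0.25 ± 0.12 (adjusted p = 0.489, limma). A dim second Erbb3 probe set did not pass in overexpressed over wildtype (-0.43 ± 0.195, adjusted p = 0.217, limma). The part of Erbb3, Cd3e, Ache, Chga, Isl1 and Dbh in the Dlk1 result was not tested.

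The window around the Dlk1 start is shown because Dlk1 carries the largest difference. RefSeq places it at chr12:109452573-109452872 on the plus strand of GRCm38.p6, 250 bases before to 50 after the start. Each window printed here was searched on both strands for the RBPJ core TGGGAA, the Hes and Hey E-box CACGTG, the Hes N-box CACNAG and the TATA box TATAAA, and capitals mark the matches. The E-box reads the same on both strands, and no 6 letters match more than 1 of the 4 motifs.
Dlk1: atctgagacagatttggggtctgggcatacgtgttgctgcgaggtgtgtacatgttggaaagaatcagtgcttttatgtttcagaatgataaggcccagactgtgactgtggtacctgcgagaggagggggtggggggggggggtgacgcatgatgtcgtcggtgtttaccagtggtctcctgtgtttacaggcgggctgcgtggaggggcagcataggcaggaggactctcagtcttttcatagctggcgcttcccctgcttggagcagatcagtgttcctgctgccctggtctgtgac
It held 0 matches to the 4 motifs and 9 CpG dinucleotides, and 45.78% of 32851 mouse promoter windows of the same length held at least as many CpG. Among all those windows, 25.56% held the RBPJ core, 7.15% the E-box, 42.48% the N-box and 13.62% the TATA box. Of the 10 genes, 8 matched a promoter entry, and 0 of their windows held the RBPJ core. Windows of Notch1, Notch3, Dll1, Hes6 and Numb held the N-box, and windows of Hes6 and Numb the TATA box. For genes with several starts, a match in any of their windows was counted. The target genes Hes1 and Hey1 had no entry, so their windows were not searched. A match or its lack describes letters in the window only.

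Among the canonical ligands, Dll1, Jag1 and Jag2 differed in which groups overlapped. Groups without overlap were common over all genes, and those shares are given with the member counts further below. Dll1, the Delta-type ligand, read 124.4, 186.1 and 146.4 in overexpressed, 256.3, 276.7 and 251.5 in knockdown and 148.1, 202.6 and 243.7 in wildtype arrays. The knockdown arrays were all above the wildtype arrays and above the overexpressed arrays, while overexpressed and wildtype overlapped. Its log2 fold changes were -0.34 ± 0.21 in overexpressed over wildtype, 0.40 ± 0.21 in knockdown over wildtype and -0.74 ± 0.21 in overexpressed over knockdown. None of the 3 met the call rule.

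Jag1 had 2 probe sets that differed in their order of groups. On the brightest, intensities were 46.7, 86.5 and 33.4 in overexpressed, 63.1, 53.4 and 37.3 in knockdown and 97.0, 88.7 and 104.9 in wildtype arrays. Both manipulated groups lay below wildtype on this probe set, with fold changes of -0.72 ± 0.30 in overexpressed over wildtype and -0.76 ± 0.30 in knockdown over wildtype. On the second, intensities were 30.6, 9.2 and 32.0 in overexpressed, 94.9, 58.6 and 55.3 in knockdown and 112.9, 55.6 and 86.2 in wildtype arrays. There only the overexpressed arrays lay below, and knockdown overlapped wildtype. Its fold changes were -1.35 ± 0.34 in overexpressed over wildtype, which met the call rule, -0.23 ± 0.34 in knockdown over wildtype and -1.13 ± 0.34 in overexpressed over knockdown. That call was lost without overexpressed A, overexpressed B, wildtype A or wildtype C. In overexpressed arrays the probe set lay near the 16 added before the log. Jag1 was also chosen with its values known, so the call is a description and not a test.

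Jag2, a second Jagged ligand, was brighter and nearer to level. Its brightest probe set read 359.9, 419.4 and 460.0 in overexpressed, 501.8, 596.1 and 464.0 in knockdown and 383.5, 492.7 and 463.7 in wildtype arrays. The overexpressed arrays lay below the knockdown arrays by a narrow gap, and the other pairs of groups overlapped. Fold changes were -0.11 ± 0.15 in overexpressed over wildtype, 0.21 ± 0.15 in knockdown over wildtype and -0.32 ± 0.15 in overexpressed over knockdown. On the second probe set they were -0.31 ± 0.16, -0.11 ± 0.16 and -0.20 ± 0.16 in the same order.

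The receptors Notch1 and Notch3 showed no group that stood apart. Notch1 on its brightest probe set read 71.2, 29.1 and 110.0 in overexpressed, 191.5, 150.4 and 94.1 in knockdown and 91.6, 102.9 and 110.0 in wildtype arrays. Overexpressed B was low and overexpressed C equalled the highest wildtype array, so all 3 pairs of groups overlapped. The fold changes were -0.57 ± 0.37 in overexpressed over wildtype, 0.41 ± 0.37 in knockdown over wildtype and -0.98 ± 0.37 in overexpressed over knockdown. A second Notch1 probe set read 10.9 to 39.5 over the 9 arrays and gave 0.18 ± 0.28, 0.24 ± 0.28 and -0.05 ± 0.28, so the first sign differed between probe sets. Notch3 read 175.0, 147.1 and 193.9 in overexpressed, 179.0, 285.8 and 181.7 in knockdown and 217.7, 214.1 and 139.3 in wildtype arrays. Knockdown B was high, and all groups overlapped. Its fold changes were -0.12 ± 0.24, 0.16 ± 0.24 and -0.28 ± 0.24 in that order of comparisons, and on the second probe set -0.12 ± 0.20, -0.08 ± 0.20 and -0.04 ± 0.20.

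The target genes Hes1, Hey1 and Hes6 differed in their order of groups. Hes1, the best known direct target of Notch, read 236.1, 251.3 and 232.8 in overexpressed, 250.8, 210.2 and 162.7 in knockdown and 161.9, 231.7 and 166.5 in wildtype arrays. Overexpressed arrays lay just above all wildtype arrays, by a gap that rests on wildtype B, and knockdown overlapped both. The fold changes were 0.35 ± 0.20 in overexpressed over wildtype, 0.14 ± 0.20 in knockdown over wildtype and 0.21 ± 0.20 in overexpressed over knockdown. Hes1 was the 1 member of 10 with a positive fold change in overexpressed over wildtype.

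Hey1, a relative of Hes1 that also represses transcription, was ordered by group. It read 275.6, 310.7 and 244.2 in overexpressed, 448.7, 475.4 and 439.2 in knockdown and 391.0, 312.7 and 320.3 in wildtype arrays. The 3 groups did not overlap, with overexpressed lowest and knockdown highest, although overexpressed B and wildtype B nearly touched. The means were 276.8 ± 33.3 in overexpressed, 454.4 ± 18.8 in knockdown and 341.3 ± 43.2 in wildtype cells (SD, n = 3 each). Fold changes were -0.29 ± 0.14 in overexpressed over wildtype and 0.40 ± 0.14 in knockdown over wildtype, neither of which met the call rule. In overexpressed over knockdown the value of -0.69 ± 0.14 met it, and 15 of 18 alternatives kept that call. It was lost without overexpressed A, overexpressed C or knockdown B. Hey1 was chosen with these values known, so the call and the alternatives that kept it describe the values and test nothing.

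Hes6, a member of the family that is known to favour neuronal differentiation and to act against Hes1, had 2 probe sets. The brightest, of the type marked x, which can match other transcripts, read 357.8, 327.4 and 494.3 in overexpressed, 518.6, 431.2 and 452.9 in knockdown and 422.2, 502.8 and 493.4 in wildtype arrays. Overexpressed C lay among the other groups, so all overlapped, and fold changes were -0.27 ± 0.16, -0.02 ± 0.16 and -0.26 ± 0.16 for overexpressed over wildtype, then knockdown over wildtype, then overexpressed over knockdown. The second read 324.3, 242.9 and 334.2 in overexpressed, 316.2, 372.0 and 436.5 in knockdown and 387.2, 427.7 and 425.6 in wildtype arrays. Here the overexpressed arrays lay below all wildtype arrays, with a fold change of -0.45 ± 0.16 that did not meet the call rule.

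Numb, an adaptor that is passed to 1 daughter cell at asymmetric division and limits Notch there, was nearly level. Its brightest probe set read 545.1, 530.7 and 567.8 in overexpressed, 473.4, 618.9 and 587.6 in knockdown and 553.1, 577.1 and 595.5 in wildtype arrays. All groups overlapped, and the fold changes were -0.07 ± 0.12, -0.05 ± 0.12 and -0.02 ± 0.12 in the order used for Hes6. A dim second probe set gave -0.61 ± 0.37, -0.37 ± 0.37 and -0.24 ± 0.37, with wildtype A high at 80.9 against 12.9 to 29.0 on the other 8 arrays.

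**Figure D2:**
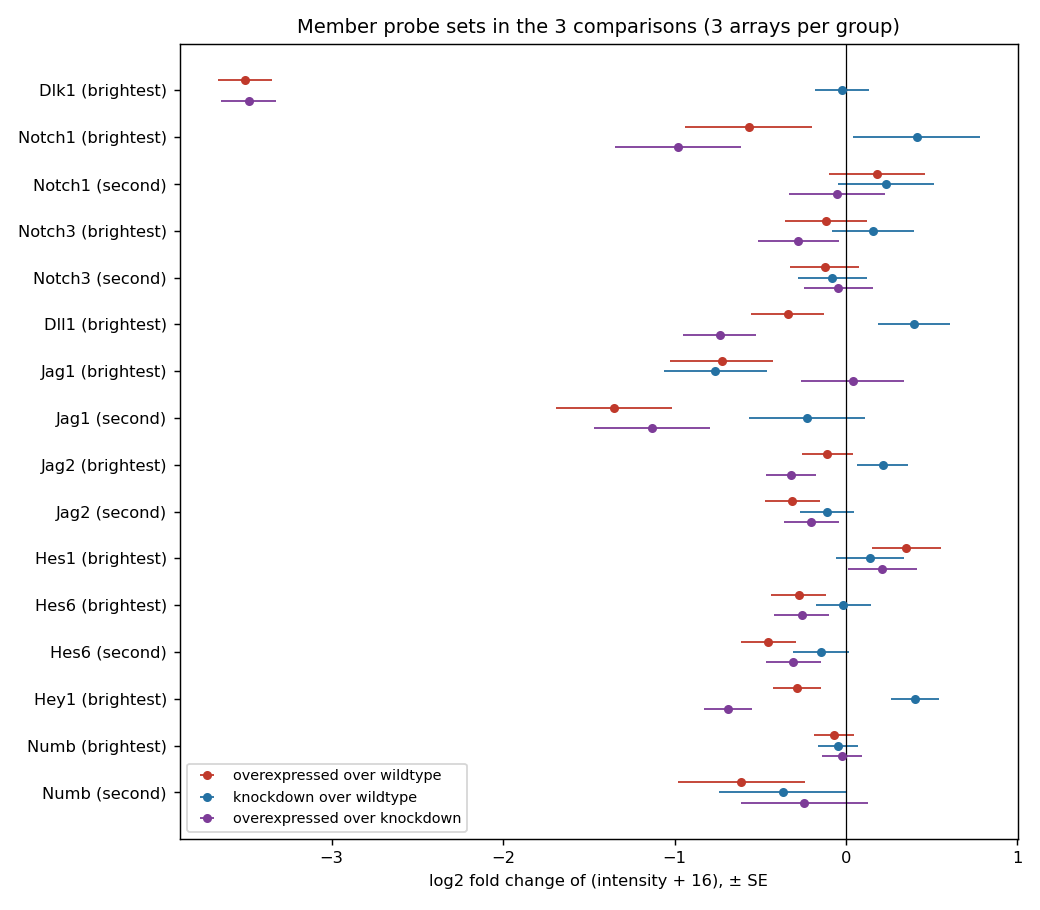
Log2 fold change of (intensity + 16) ± SE for the 16 probe sets in overexpressed over wildtype, in knockdown over wildtype and in overexpressed over knockdown, with 3 arrays per group. Dlk1 stands at -3.51 and -3.48 in the comparisons that involve overexpression and at -0.02 in knockdown over wildtype, and every other value lies between -1.35 and 0.41.

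Counted by brightest probe set, 1 of the 10 genes met the call rule in overexpressed over wildtype, which was Dlk1, lower. Among all 12393 genes 6.22% were called lower and 5.04% higher in this comparison. For 1 member all overexpressed arrays lay above wildtype, where 13.8% of all genes did, and for 3 they lay below, where 16.1% did. The members' median was -0.28, against -0.03 over all genes, and 9 of 10 values were negative. In knockdown over wildtype, 0 of 10 members met the call rule in limma, and 0% of all genes were called higher and 0.00807% lower. Of the members 2 had an unadjusted p under 0.05, as did 2462 of all 22626 probe sets. The knockdown arrays lay above wildtype for 2 members, Dll1 and Hey1, where 9.67% of all genes did, and below for 1, Jag1, where 6.68% did. The median was 0.15, against 0.04 over all genes.

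In overexpressed over knockdown, Dlk1 and Hey1 met the call rule, both lower, where 5.25% of all genes were called lower and 3.57% higher. The count was 1 without overexpressed A, overexpressed C or knockdown B. For 4 members, Dlk1, Dll1, Jag2 and Hey1, all overexpressed arrays lay below all knockdown arrays, which 17.7% of all genes did, and for 0 members they lay above, which 12.7% did. The members' median was -0.30, against -0.08 over all genes. Both comparisons with wildtype share the 3 wildtype arrays, and both with overexpressed share the 3 overexpressed arrays. Since values of all groups were in view when the members were chosen, nothing is read from these counts.

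The rest of the pathway was taken from a list of 71 genes written from general knowledge of the pathway, of which 63 were measured, 53 of them not described so far. In overexpressing cells against wildtype, 5 of these 53 fell and 1 rose, while in knockdown cells 0 passed. The 5 that fell were Neurl1a, Notch2, Mfap2, Ncstn and Dtx1, and the 1 that rose was Tle3. The median over the 53 was -0.04 in overexpressed over wildtype, against -0.03 over all genes. Of 53, 5 lower is 9.43% and 1 higher is 1.89%, beside the 6.22% and 5.04% of all genes given above. With the 10 members included, 7 of 63 passed in overexpressed over wildtype, and this count was 4 without overexpressed A, overexpressed B, wildtype A or wildtype B. The split of these 7, 1 higher and 6 lower, was 3 higher and 4 lower without wildtype C, and 0 were higher without any 1 of the overexpressed arrays, wildtype A or wildtype B.

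Neurl1a, which encodes a ubiquitin ligase that acts on Notch ligands, was the clearest of them. It read 614.5, 576.3 and 573.5 in overexpressed, 943.7, 1151.1 and 1154.8 in knockdown and 1372.2, 1172.0 and 1110.6 in wildtype arrays. The overexpressed arrays lay well below the other 6, and knockdown overlapped wildtype. The fold change was -1.03 ± 0.11 in overexpressed over wildtype (adjusted p = 0.000668, limma) and -0.86 ± 0.11 in overexpressed over knockdown (adjusted p = 0.00224, limma), and all 18 alternatives kept both calls. A second probe set fell by 0.67 ± 0.15 on the log2 scale against wildtype (adjusted p = 0.017, limma), and the 2 dimmest, at -0.20 ± 0.24 and -0.04 ± 0.43, did not pass.

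Notch2, a receptor paralog outside the member list, fell as well. It read 124.9, 170.4 and 108.2 in overexpressed, 245.3, 208.0 and 222.8 in knockdown and 326.9, 277.7 and 248.0 in wildtype arrays. The 3 groups did not overlap, with overexpressed lowest and wildtype highest. Its fold change in overexpressed over wildtype was -1.01 ± 0.20 (adjusted p = 0.00941, limma), kept under all 18 alternatives. The values of -0.31 ± 0.20 in knockdown over wildtype (adjusted p = 0.605) and -0.70 ± 0.20 in overexpressed over knockdown (adjusted p = 0.0555) did not pass. A second, dim Notch2 probe set read 4.9 to 122.0 over the 9 arrays and gave 0.31 ± 0.65. Of the other 3 receptor genes, Notch1, Notch3 and Notch4, none passed, with Notch4 at -0.15.

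Mfap2, which encodes a microfibril protein reported to bind Notch ligands and receptors, read 1391.0, 1424.0 and 1686.0 in overexpressed, 2230.4, 2531.5 and 2767.6 in knockdown and 2151.8, 2659.8 and 2075.5 in wildtype arrays. Overexpressed arrays were below the other 6 arrays, and knockdown overlapped wildtype. It fell by 0.60 ± 0.12 on the log2 scale against wildtype (adjusted p = 0.0117, limma) and by 0.74 ± 0.12 against knockdown (adjusted p = 0.00674, limma). The call against wildtype was lost without overexpressed A or wildtype B, and without the mean-variance trend.

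The remaining calls in overexpressed over wildtype were nearer the threshold. Ncstn, which encodes nicastrin of the gamma-secretase that cuts Notch, read 547.1, 414.4 and 459.5 in overexpressed, 651.0, 544.4 and 645.4 in knockdown and 686.2, 636.9 and 749.5 in wildtype arrays. It was lower in overexpressed over wildtype by non-overlapping arrays, at -0.54 ± 0.13 (adjusted p = 0.0265, limma; 0.0972 at most under the alternatives, of which 11 of 18 kept the call). Tle3, a Groucho-type corepressor that works with Hes proteins, read 752.9, 706.4 and 808.8 in overexpressed, 525.0, 700.7 and 559.5 in knockdown and 515.7, 464.3 and 584.4 in wildtype arrays. All overexpressed arrays lay above the other groups, at 0.53 ± 0.13 over wildtype (adjusted p = 0.0317, limma; at most 0.125, and 12 of 18 kept the call). The 2 other Tle3 probe sets were at 0.27 ± 0.19 and 0.39 ± 0.16 and did not pass. Dtx1, a Deltex ubiquitin ligase gene and Notch target, read 285.1, 374.8 and 400.5 in overexpressed, 497.5, 457.8 and 436.4 in knockdown and 470.7, 548.5 and 494.1 in wildtype arrays. Its overexpressed arrays lay below the others, at -0.51 ± 0.14 over wildtype (adjusted p = 0.0498, limma; at most 0.175, and 6 of 18 kept the call).

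**Figure D3:**
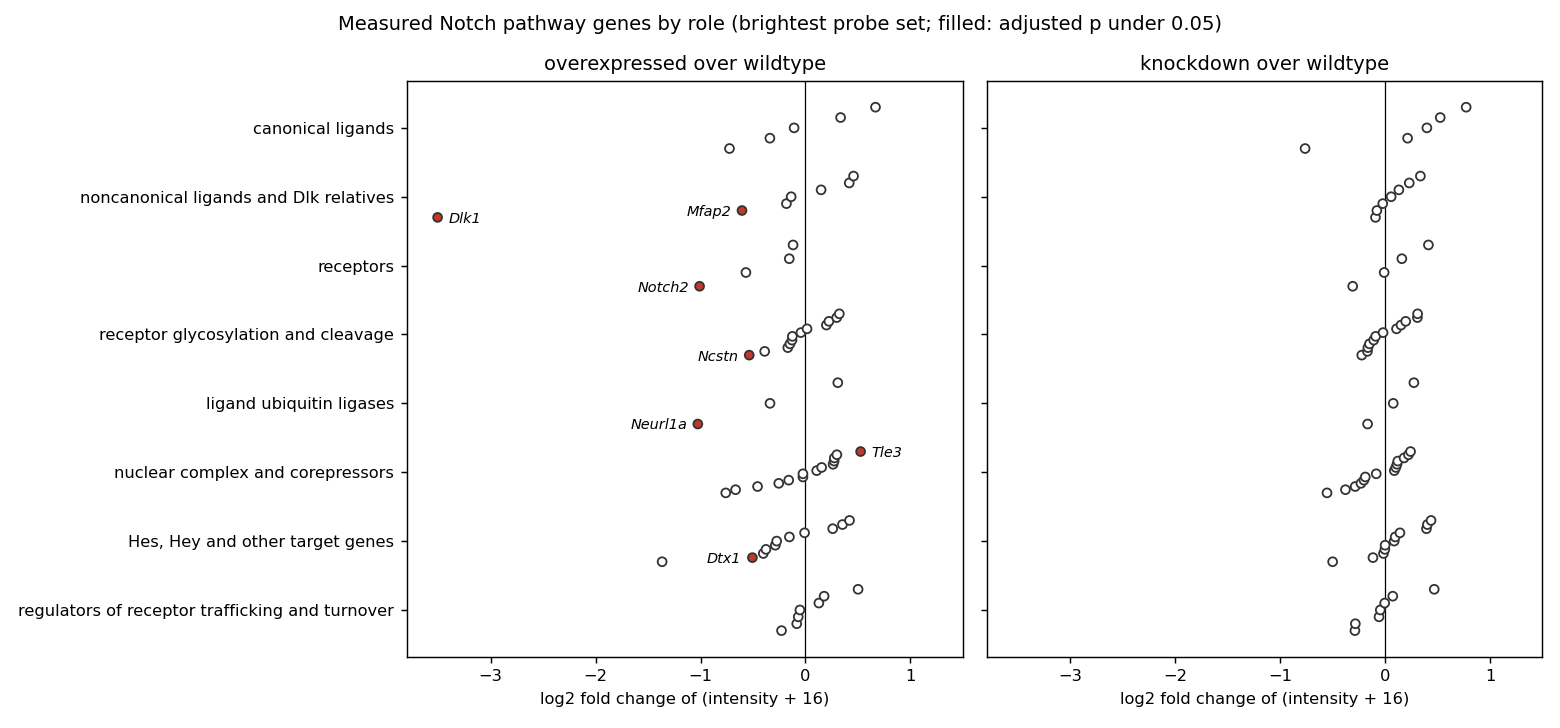
Log2 fold change of (intensity + 16) for each measured gene of the Notch pathway, grouped by role, in overexpressed over wildtype (left) and knockdown over wildtype (right); filled points have an adjusted p under 0.05 and are named. The left panel has 7 filled points, Dlk1, Mfap2, Notch2, Ncstn, Neurl1a, Tle3 and Dtx1, and the right panel has 0.

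By role, the calls in overexpressed over wildtype were spread thinly. Of 5 canonical ligands 0 passed in limma, with 2 at an unadjusted p under 0.05, of 7 noncanonical ligands and Dlk relatives 2 fell, and of 4 receptors 1 fell. Of 12 genes of receptor glycosylation and cleavage 1 fell, of 3 ligand ubiquitin ligases 1 fell, and of 14 genes of the nuclear complex and its corepressors 1 rose. Of 11 Hes, Hey and other target genes 1 fell, and of 7 regulators of receptor trafficking and turnover 0 passed, with 1 at an unadjusted p under 0.05. Rbpj itself, which encodes the DNA-binding partner of the cut receptor, was at -0.16 in overexpressed over wildtype and 0.09 in knockdown over wildtype, neither of which passed.

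The promoter windows of 3 pathway genes that moved are shown beside that of Dlk1, from RefSeq with the same window and motifs. Neurl1a lies at chr19:47178570-47178869, Notch2 at chr3:98013288-98013587 and Tle3 at chr9:61372116-61372415, all on the plus strand of GRCm38.p6.
Neurl1a: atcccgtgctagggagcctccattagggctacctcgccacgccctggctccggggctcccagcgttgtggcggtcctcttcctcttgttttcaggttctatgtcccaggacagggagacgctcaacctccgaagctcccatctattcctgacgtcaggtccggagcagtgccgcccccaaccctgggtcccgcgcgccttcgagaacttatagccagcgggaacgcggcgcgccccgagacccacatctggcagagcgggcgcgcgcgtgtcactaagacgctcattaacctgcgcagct
Notch2: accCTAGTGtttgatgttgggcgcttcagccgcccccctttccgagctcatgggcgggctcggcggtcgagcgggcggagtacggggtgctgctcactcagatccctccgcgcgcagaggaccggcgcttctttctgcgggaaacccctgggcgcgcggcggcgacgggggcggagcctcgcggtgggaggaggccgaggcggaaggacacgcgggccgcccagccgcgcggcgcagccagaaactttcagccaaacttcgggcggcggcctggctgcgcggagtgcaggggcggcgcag
Tle3: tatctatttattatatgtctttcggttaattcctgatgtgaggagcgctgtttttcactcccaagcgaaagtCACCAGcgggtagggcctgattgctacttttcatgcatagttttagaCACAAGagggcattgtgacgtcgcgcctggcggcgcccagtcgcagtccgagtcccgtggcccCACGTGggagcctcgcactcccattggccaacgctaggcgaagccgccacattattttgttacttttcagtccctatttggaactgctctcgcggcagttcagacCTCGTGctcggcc
The Neurl1a window held 0 matches and 28 CpG. The Notch2 window held 1 N-box, 247 bases upstream of the start, and 41 CpG. In the Tle3 window there were 1 E-box 68 bases upstream, N-boxes 178 and 131 bases upstream and 38 bases into the transcript, and 21 CpG. The median CpG count over all windows was 7.

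In knockdown over wildtype, 0 of the 53 other genes passed in limma. Of the 53, 5 had an unadjusted p under 0.05, as did 2462 of all 22626 probe sets. Their median was 0.00, against 0.04 over all genes. The smallest p-values belonged to Dll4, Nedd4 and Psenen. Dll4, a Delta-type ligand, read 132.5, 101.9 and 59.0 in knockdown and 52.6, 48.4 and 43.6 in wildtype arrays. Knockdown arrays lay above wildtype by non-overlapping values, at 0.77 ± 0.27, which did not pass (adjusted p = 0.352, limma). A second Dll4 probe set was at 0.07 ± 0.28 there, but rose in overexpressed over wildtype by 1.24 ± 0.28 (adjusted p = 0.0206, limma), where the brightest was at 0.67 ± 0.27 (adjusted p = 0.171). Nedd4, a ubiquitin ligase, was at -0.29 ± 0.10 (adjusted p = 0.355, limma) and Psenen, a gamma-secretase subunit, at 0.20 ± 0.08 (adjusted p = 0.389, limma) in knockdown over wildtype.

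In overexpressed over knockdown, 2 of the 53 other genes fell and 1 rose, with a median of -0.10 against -0.08 over all genes. That is 3.77% lower and 1.89% higher, both under the 5.25% and 3.57% of all genes. Those that fell were Neurl1a and Mfap2, described above. Adam10, which encodes the protease that makes the first ligand-induced cut in Notch, read 772.7, 871.0 and 659.1 in overexpressed, 529.2, 518.1 and 532.3 in knockdown and 664.4, 576.0 and 614.0 in wildtype arrays. The overexpressed arrays lay above the knockdown arrays, and overlapped wildtype. It rose by 0.52 ± 0.12 in overexpressed over knockdown (adjusted p = 0.0239, limma), a call that 12 of 18 alternatives kept, while its other 2 probe sets, at 0.63 ± 0.24 and 0.30 ± 0.16, did not pass. With the members included, 5 of 63 passed in overexpressed over knockdown, and 3 without overexpressed A or knockdown B. A dimmer probe set of Ctbp2, a corepressor gene, rose in overexpressed cells over wildtype (0.73 ± 0.19, adjusted p = 0.0316, limma) and over knockdown (0.79 ± 0.19, adjusted p = 0.028, limma). One of Aph1a fell in overexpressed over wildtype (-0.60 ± 0.15, adjusted p = 0.0262, limma). The second of Dll4 also rose in overexpressed over knockdown (1.17 ± 0.28, adjusted p = 0.032, limma). The brightest probe sets of these genes did not pass.

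Proneural bHLH genes, which Hes proteins are known to repress, were measured for 9 of 10 listed genes. Of these 0 passed in any of the 3 comparisons by limma, and 0, 1 and 0 had an unadjusted p under 0.05 in the overexpressed over wildtype, the knockdown over wildtype and the overexpressed over knockdown comparison. Their medians were -0.34, -0.01 and -0.28 in that order, and their summed intensity was 441.3 to 682.8 in overexpressed, 533.1 to 877.7 in knockdown and 526.9 to 591.8 in wildtype arrays. Several were dim, with the lowest group mean at 3.40, and the array says little of such genes.

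Dlk1 lies in an imprinted domain on chromosome 12 with the maternally expressed noncoding RNAs Meg3 and Rian. Of 6 listed genes of the domain 3 were measured, and besides Dlk1 neither of the others met the call rule on its brightest probe set. Rian read 70.5, 61.6 and 62.1 in overexpressed, 126.3, 95.7 and 110.4 in knockdown and 108.8, 135.5 and 106.5 in wildtype arrays. As for Dlk1, all overexpressed arrays were below the other 6, and knockdown overlapped wildtype. The fold changes were -0.71 ± 0.22 in overexpressed over wildtype (adjusted p = 0.0637, limma), -0.07 ± 0.22 in knockdown over wildtype and -0.65 ± 0.22 in overexpressed over knockdown (adjusted p = 0.0996, limma). A second Rian probe set read 57.0, 59.3 and 56.1 in overexpressed, 89.3, 103.0 and 94.7 in knockdown and 74.8, 75.6 and 71.6 in wildtype arrays. On it the 3 groups did not overlap, with overexpressed lowest and knockdown highest. The other, a dim one, was at 0.20 in overexpressed over wildtype.

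Meg3 had 5 probe sets with different patterns. The brightest read 314.8, 479.1 and 358.1 in overexpressed, 535.7, 584.3 and 405.9 in knockdown and 371.7, 470.3 and 416.1 in wildtype arrays, and all groups overlapped. Its fold change was -0.14 ± 0.18 in overexpressed over wildtype (adjusted p = 0.752, limma) and 0.26 ± 0.18 in knockdown over wildtype. The third in brightness, of the type marked s, read 128.9, 86.9 and 93.9 in overexpressed, 174.9, 180.1 and 146.9 in knockdown and 179.0, 169.9 and 150.4 in wildtype arrays. On it the overexpressed arrays lay below the other 6, at -0.63 ± 0.21 over wildtype (adjusted p = 0.0851, limma). The other 3 gave 1.01 ± 0.58, -0.20 and 0.15 in overexpressed over wildtype.

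**Figure D4:**
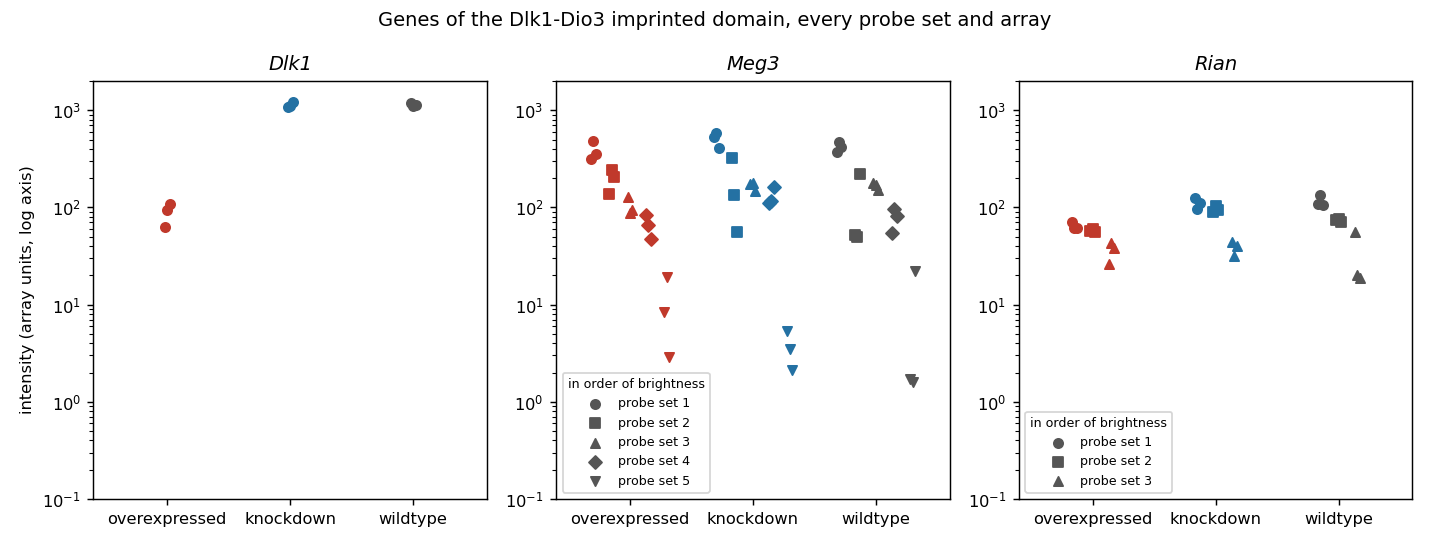
Intensity on each array (log axis) for every probe set of Dlk1, Meg3 and Rian, by group, with marker shape for the probe set in order of brightness. Dlk1 and the brightest Rian probe set, at 61.6 to 70.5 in overexpressed arrays, lie below the knockdown and wildtype arrays, while the brightest Meg3 probe set overlaps between groups.

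Outside the domain, 18 of 19 other imprinted genes were measured, and 1 rose in overexpressed over wildtype, which is 5.56% beside 5.04% of all genes. This was Phlda2, a maternally expressed gene that restrains placental growth, at 791.5, 733.1 and 750.2 in overexpressed, 614.0, 526.6 and 562.4 in knockdown and 352.8, 218.4 and 466.3 in wildtype arrays. The overexpressed arrays lay above all others, and the fold change of 1.16 ± 0.21 (adjusted p = 0.0072, limma) was called under all 18 alternatives. Its knockdown arrays also lay above all wildtype arrays, at 0.75 ± 0.21, which did not pass (adjusted p = 0.26, limma). In knockdown over wildtype 0 of the 18 passed in limma, with 3 at an unadjusted p under 0.05. In overexpressed over knockdown 1 of the 18 passed, Impact, at 0.38 ± 0.10 (adjusted p = 0.0482, limma), a call that 7 of 18 alternatives kept. Its means were 1096 ± 37.6 in overexpressed, 845 ± 93.9 in knockdown and 1287 ± 85.8 in wildtype cells (SD, n = 3 each), so both manipulated groups lay below wildtype and knockdown lay lowest. Against wildtype it was at -0.23 ± 0.10 in overexpressed (adjusted p = 0.208, limma) and -0.60 ± 0.10 in knockdown cells (adjusted p = 0.0847, limma), and neither passed. A dim second probe set of Usp29 fell in overexpressed over wildtype (-1.05 ± 0.29, adjusted p = 0.0427, limma). It also fell in overexpressed over knockdown (-1.22 ± 0.29, adjusted p = 0.0279, limma). The brightest Usp29 probe set, at -0.02 ± 0.19 and 0.09 ± 0.19, did not pass.

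The genes whose pattern over the 9 arrays was most like that of Dlk1 were found by Pearson's r of log2(intensity + 16), among 11110 named probe sets above the median in their brightest group. They were Prom1 (0.9941), Aldoc (0.9924), Pnck (0.9894), Fxyd7 (0.987) and Adam23 (0.9866). The most unlike were Hnrnpll (-0.9945), Mphosph10 (-0.9861) and Cdc25a (-0.9854). These values describe 9 points that share 3 groups and are dominated by the step between overexpressed and the other arrays. Prom1, which encodes the membrane protein prominin, read 121.1, 149.4 and 127.8 in overexpressed, 672.4, 602.0 and 671.3 in knockdown and 718.9, 713.2 and 637.1 in wildtype arrays. Like Dlk1, it was low on all overexpressed arrays, with knockdown and wildtype overlapping. Adam23, a cell adhesion gene, read 26.3, 37.7 and 39.0 in overexpressed, 308.2, 206.9 and 255.5 in knockdown and 252.2, 347.6 and 280.2 in wildtype arrays.

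Among the most unlike, Cdc25a, which encodes a phosphatase that activates cyclin-dependent kinases, read 1321.1, 1188.8 and 1338.1 in overexpressed, 708.2, 752.6 and 690.8 in knockdown and 740.6, 735.7 and 762.7 in wildtype arrays. It was high on all overexpressed arrays. Other probe sets did not always follow. A dim one for Aldoc had r = -0.105 and a dimmer one for Mphosph10 r = -0.0243, while those for Cdc25a and Hnrnpll had r = -0.919 and r = -0.9138.

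**Figure D5:**
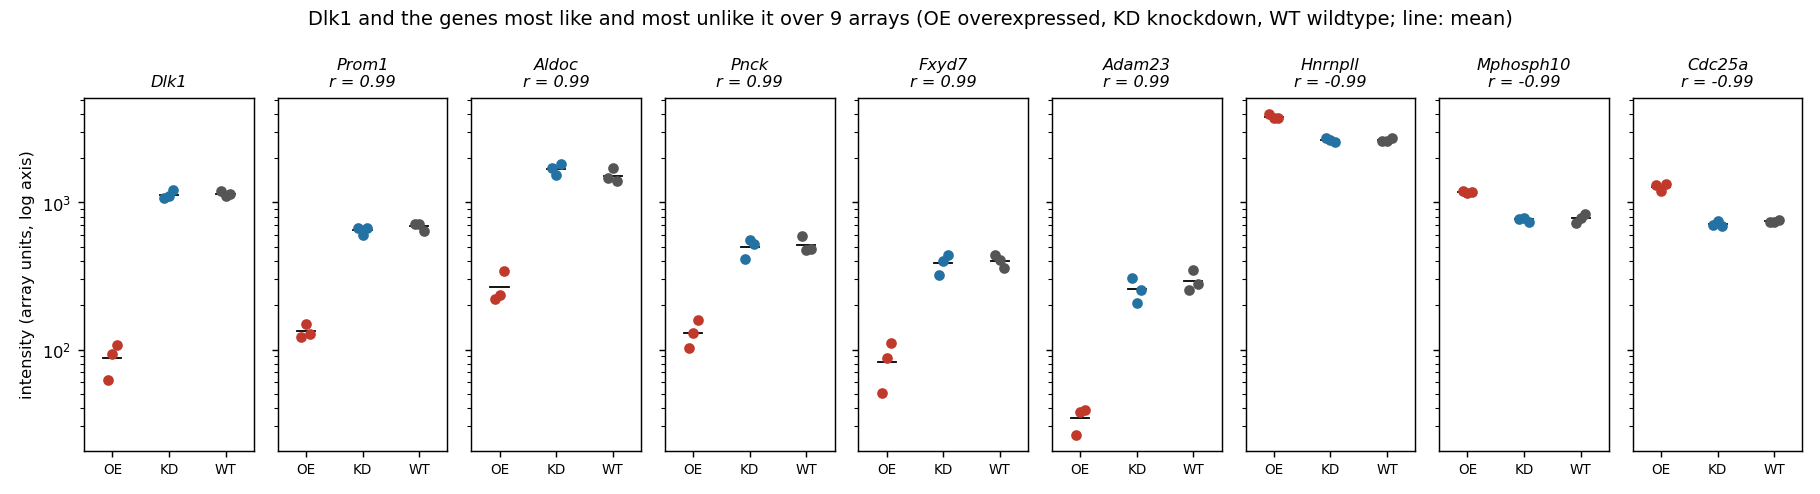
Intensity on each array (log axis) of Dlk1, the 5 genes with the highest and the 3 with the lowest Pearson's r with it over the 9 arrays, by group; lines are means. In the first 6 panels the overexpressed arrays lie below the knockdown and wildtype arrays, and in the last 3 above them, with r from 0.9866 to 0.9941 and from -0.9945 to -0.9854.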

How the data were processed

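The authors deposited linear intensity values, 1 per probe set and array, of a 1-colour array with probe set names of the Affymetrix kind; software, background correction, scaling and detection calls are not given in the sources. Of 22690 probe sets, 64 controls were left out. Of the other 22626, 20380 had 1 symbol in the platform annotation, 691 several and 1555 none, and 20351 matched RefSeq's GRCm38.p6 gene table by gene identifier, with 0 symbols updated. Intensities were taken as log2(intensity + 16). limma 3.58.1 in R 4.3.3 (lmFit with a mean per group on all 9 arrays, eBayes with a mean-variance trend) gave fold changes and p-values, with Benjamini-Hochberg adjustment over 22626 probe sets per comparison and calls at adjusted p under 0.05. The fit was tested on simulated data. The number of arrays limits the precision.

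Members were chosen, and gene lists written from general knowledge, with earlier results of these data known. For that reason no list was tested, and no p-value is printed for a single member. Adjusted p-values of other genes refer to single probe sets and not to a list. Calls of members, and how many alternatives kept them, describe their values and are not tests. Named genes were all members and measured domain genes, up to 8 called other pathway genes per comparison by p (otherwise the 3 with the smallest p), up to 3 called imprinted or proneural genes, the genes most like Dlk1, and markers. Alternatives were pseudocounts of 1 and 64, a brightness filter at the 40th percentile, quantile normalization, a common array median, no trend, array weights, the letter as a block, only probe sets of the plain and a types, averaging all probe sets of a gene, and each array left out.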

Additional observations from a re-analysis of the deposited data

How the results depend on the processing

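In knockdown over wildtype, 0 members and 0 pathway genes were called under all alternatives run. In overexpressed over wildtype, the count of 1 member was 0 without the probe set types that can match several transcripts (s and x among them), which removes the only Dlk1 probe set, 2 with the mean of a gene's probe sets, and 1 throughout when single arrays were left out. The count of 7 pathway genes there was 3 without the mean-variance trend and 4 to 7 with single arrays left out, lowest without overexpressed A, overexpressed B, wildtype A or wildtype B; with the mean of a gene's probe sets it was 10, 2 higher and 8 lower. In overexpressed over knockdown, the count of 2 members was 1 without those probe set types and 1 to 3 with single arrays left out, and the count of 5 pathway genes ran from 3 to 6. The knockdown over wildtype fold of Rian, -0.07, turned positive without wildtype B, at 0.0293, and without knockdown B, and ran from -0.1551 to 0.0293. The causes of the other shifts were not tested. With the letter as a replicate block, counts were 1, 0 and 2 for members and 7, 0 and 5 for the pathway in overexpressed over wildtype, then knockdown over wildtype, then overexpressed over knockdown. Deviations of arrays with the same letter correlated at -0.0123 to 0.1021, not over 0.1 for every pair, so the letters were not used as pairs. Dim probe sets limit what the array can show, since no detection calls were used.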
